A study of Mus musculus with 16 samples.

Results

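The adventitia is the outer layer of the wall of vessels and airways, and its fibroblasts are marked by a small set of surface and secreted proteins. The 8 genes described here are such markers, chosen by name: *Pi16*, *Dpt*, *Ly6a*, *Cd34*, *Clec3b*, *Gsn*, *Serpinf1* and *Pcolce2*. All 8 were found among the 49452 genes of the deposited tables. They were measured by RNA sequencing in lung cells sorted for tdTomato from 16 mice, in 4 groups of 4 mice. *Acta2-tdT* mice (Acta2-CreERT2; tdTomatoflox) and *Pdgfra-tdT* mice (Pdgfra-CreERT2; tdTomatoflox) each received saline or bleomycin, and lungs were taken after 14 days at 11 weeks of age. All 4 groups carried a tamoxifen-inducible Cre recombinase and received tamoxifen, which permanently labels the cells in which the driver promoter is active at that time. *Acta2-tdT* mice received tamoxifen in food (400 mg/kg) starting 5 days after instillation, and *Pdgfra-tdT* mice received 5 injections of 3 mg at 6 weeks of age, before instillation. The line and the time of labelling therefore cannot be told apart. The study followed both lineages in the parenchyma and around vessels, and the comparisons below ask how adventitial markers stood in the 2 labelled populations and after injury.

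Fibroblasts of the adventitia share a programme of matrix proteins, surface molecules and enzyme inhibitors that sets them apart from the fibroblasts of the alveolar wall. They lie next to endothelial cells, smooth muscle cells and pericytes in a vascular cuff, and several of their markers are not theirs alone. *Ly6a* (Sca-1) and *Cd34* are also genes of endothelial cells, and *Gsn* is made by many mesenchymal and muscle cells.

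The sorted populations were checked first with the genes that drive Cre. *Acta2*, smooth muscle α-actin, was listed at 139 to 314 FPKM (a read level corrected for transcript length and library size) in *Acta2-tdT* saline mice and at 1229 to 3211 with bleomycin. In *Pdgfra-tdT* mice *Acta2* was at 2.59 to 11.0 with saline and 0.831 to 19.4 with bleomycin. *Pdgfra* was at 2.14 to 3.82 FPKM in *Pdgfra-tdT* saline mice and at 0.273 to 0.562 in *Acta2-tdT* saline mice, so that it followed its line although at a low level. With bleomycin *Pdgfra* was at 0.977 to 2.45 in *Pdgfra-tdT* mice and at 2.49 to 11.9 in *Acta2-tdT* mice. FPKM were not on the same scale in the groups: the sum over nuclear protein-coding genes was 35602 to 57788 in *Acta2-tdT* saline mice, 231058 to 463127 in *Acta2-tdT* bleomycin mice, 29964 to 59840 in *Pdgfra-tdT* saline mice and 28512 to 137952 in *Pdgfra-tdT* bleomycin mice. The reason for this difference is not given in the sources used here. Tests are therefore given on FPKM as deposited and on scaled FPKM, in which each mouse was brought to the same nuclear protein-coding sum. The factors for this were 0.106 to 0.213 in *Acta2-tdT* and 0.356 to 1.72 in *Pdgfra-tdT* bleomycin mice. The *Pdgfra* values above, which are as deposited, therefore do not rank the lines with bleomycin. In RNA from sorted pools, fewer cells of a type and less RNA per cell cannot be told apart. *Pdgfra-tdT* saline mouse 3 and *Pdgfra-tdT* bleomycin mouse 5 stood apart from their groups, with high values of most markers and of all 10 endothelial genes, and results that rest on them are given with and without them.

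Detection differed strongly among the markers. *Ly6a*, a GPI-anchored surface protein, reached 1 FPKM in 16 of 16 mice, and *Gsn*, the actin-severing protein gelsolin, in 14. *Cd34*, a surface sialomucin, reached it in 11, *Dpt* and *Pcolce2* in 9 each, and *Pi16* and *Serpinf1* in 8 each. *Clec3b*, which encodes the plasminogen-binding protein tetranectin, reached it in 2 mice only, and its lower bound in the deposited tables was above 0 in 5. In *Acta2-tdT* mice, 3 to 7 of the 8 markers reached 1 FPKM with saline and 7 or 8 with bleomycin. In *Pdgfra-tdT* saline mice 1, 2 and 4 the number was 2, and it was 6 in mouse 3. In *Pdgfra-tdT* bleomycin mice 5, 6, 7 and 8 it was 7, 3, 4 and 2.

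**Figure D1:**
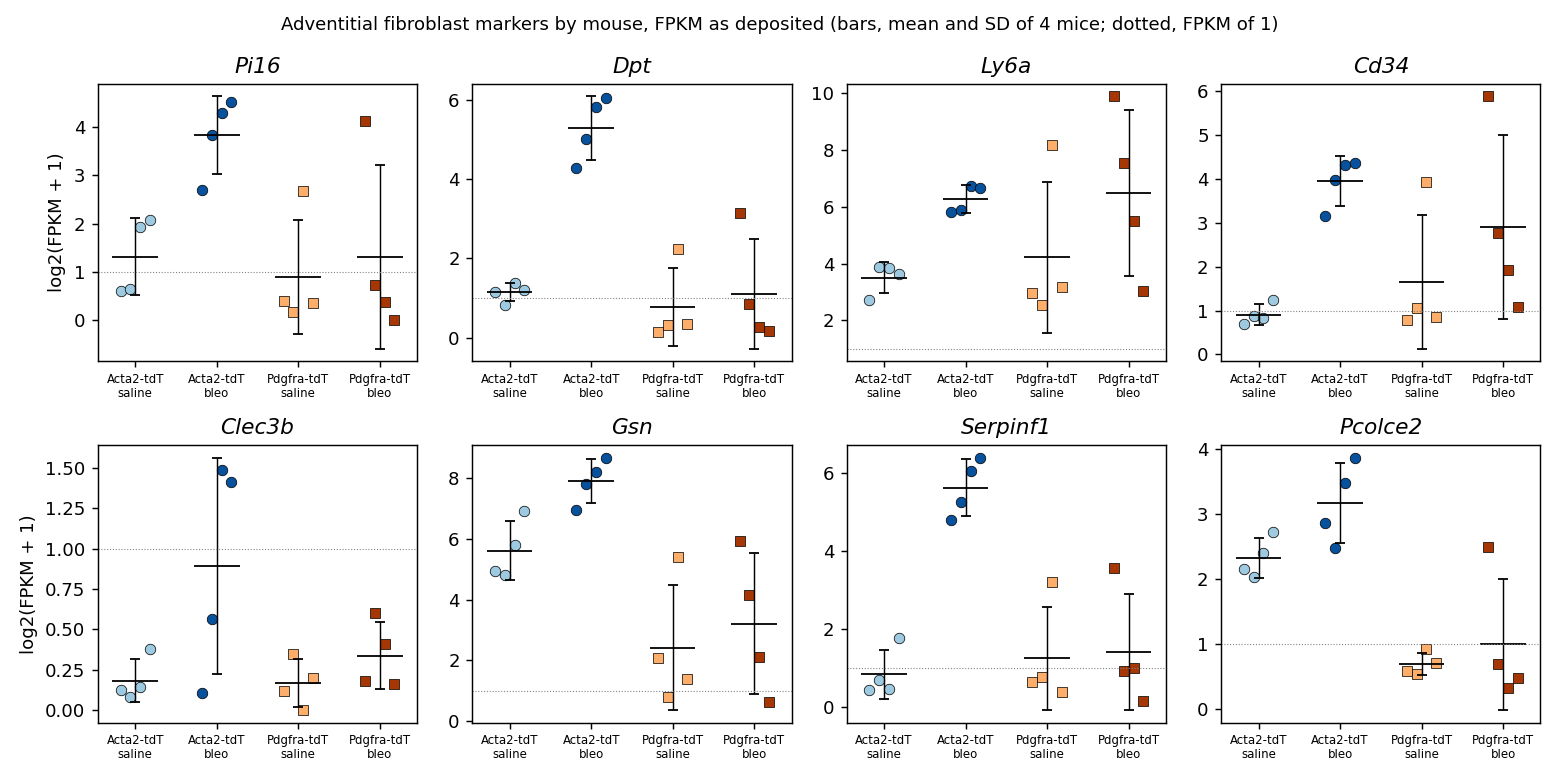
Each point is 1 mouse, the vertical axis is log2(FPKM + 1) on its own range in each panel, and the bars give the mean and SD of 4 mice in saline or bleomycin (bleo) groups. *Acta2-tdT* bleomycin mice lay above *Acta2-tdT* saline mice without overlap for 6 markers, as did 67.8% of the 12523 genes tested, and in the *Pdgfra-tdT* groups 1 saline mouse (*Ly6a* of 292 FPKM) and 1 bleomycin mouse (*Ly6a* of 956 FPKM) lay far above the others.

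The markers lie on 6 chromosomes of GRCm38, and all are annotated as protein-coding. *Pi16* spans chr17:29318882-29329413 on the plus strand, *Dpt* chr1:164796644-164824266 (plus), *Ly6a* chr15:74994877-74998031 (minus), *Cd34* chr1:194938819-194961279 (plus), *Clec3b* chr9:123150946-123157432 (plus), *Gsn* chr2:35256380-35307892 (plus), *Serpinf1* chr11:75409769-75422701 (minus) and *Pcolce2* chr9:95637601-95698096 (plus). FPKM sum the exons of all transcripts of a gene. The library protocol does not keep strand, and exons of *Cd34* overlap those of the antisense gene *Gm16897*, listed at 0.174 to 3.56 FPKM, so reads of these genes cannot be separated. An exon of *Pi16* also overlaps an antisense gene of GENCODE. *Ly6a* belongs to a multigene family with close copies, and how reads shared among them were split is uncertain.

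*Dpt* and *Serpinf1* had the largest rises with bleomycin in *Acta2-tdT* cells on both scales, and *Pcolce2* was the one marker called lower when scaled. The RefSeq promoter table (GRCm38.p6) held 6 of the 8 markers, and not *Ly6a* and *Clec3b*. For these 3 markers the bases before the start of transcription and outside the GENCODE limits of the gene are shown 5′ to 3′, with matches to the searched motifs in capitals.
Dpt, chr1:164796413-164796643, plus strand: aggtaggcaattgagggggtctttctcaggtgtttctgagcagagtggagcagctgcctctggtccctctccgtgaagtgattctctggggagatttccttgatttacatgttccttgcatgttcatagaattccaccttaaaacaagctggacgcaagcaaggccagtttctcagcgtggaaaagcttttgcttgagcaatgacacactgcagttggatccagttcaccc
Serpinf1, chr11:75422702-75422873, minus strand: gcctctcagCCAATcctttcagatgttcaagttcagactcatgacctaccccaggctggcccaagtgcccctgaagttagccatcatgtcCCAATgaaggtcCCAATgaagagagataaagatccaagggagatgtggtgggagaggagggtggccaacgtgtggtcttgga
Pcolce2, chr9:95637378-95637600, plus strand: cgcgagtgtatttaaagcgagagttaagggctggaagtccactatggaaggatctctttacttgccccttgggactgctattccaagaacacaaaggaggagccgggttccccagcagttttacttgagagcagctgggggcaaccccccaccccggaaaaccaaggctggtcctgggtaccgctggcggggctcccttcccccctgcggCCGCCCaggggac
The motifs were the TATA box (spelled TATAAA), the CCAAT box (spelled CCAAT), the GC box (spelled GGGCGG) and the AP-1 site (spelled TGANTCA), searched on both strands in the 250 bases before the start. *Serpinf1* held CCAAT at 3 positions, which begin at bases -241, -160 and -148 from its RefSeq start, and 33.8% of 32851 promoters held CCAAT at least once. *Pcolce2* held the GC box on the opposite strand, where 32.7% of promoters held it on either strand. *Dpt* and *Cd34* held none of the 4 motifs, *Pi16* held CCAAT once, and *Gsn* held the GC box before each of its 3 listed starts and CCAAT before 2 of them. The TATA box stood in 12.4% and the AP-1 site in 6.75% of promoters, and in none of those of the 6 markers. *Dpt* and *Serpinf1* thus shared none of these motifs.

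In *Acta2-tdT* cells, the markers were mostly higher after bleomycin in FPKM as deposited, as were most genes (86.6% of 12523 were called and the median log2 difference of all genes was 1.76), and 2 secreted proteins, *Serpinf1* and *Dpt*, were also higher after scaling. *Cd34* was higher after scaling too, *Pcolce2* was lower, and *Pi16*, *Ly6a* and *Gsn* did not pass the test. *Serpinf1*, which encodes the secreted serpin PEDF, was at 0.373, 0.628, 0.387 and 2.41 FPKM in saline mice 1 to 4 and at 26.7, 37.4, 65.6 and 83.1 in bleomycin mice 5 to 8. Every bleomycin mouse was more than 10 FPKM above every saline mouse. The log2 difference was 4.78 ± 0.45 (SE, adjusted p = 1.6e-05 by limma).

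*Dpt* encodes dermatopontin, a matrix protein that binds collagen fibrils and decorin. It was at 1.22, 0.781, 1.60 and 1.32 FPKM with saline and at 18.6, 31.2, 55.8 and 65.3 with bleomycin, and the groups did not overlap. Its log2 difference was 4.15 ± 0.41 (SE, adjusted p = 1.7e-05 by limma).

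Scaled to the same nuclear protein-coding sum, *Serpinf1* was at 0.498, 0.867, 0.391 and 2.05 with saline and at 4.12, 7.95, 7.40 and 8.82 with bleomycin. Scaled *Dpt* was at 1.63, 1.08, 1.62 and 1.12 with saline and at 2.88, 6.64, 6.29 and 6.93 with bleomycin. Both genes kept their groups apart, but the share of all genes that did so when scaled was not computed. On scaled values 56.6% of 12523 genes were called, 2999 higher and 4084 lower. *Serpinf1* and *Dpt* reached 1 FPKM in 1 and 3 of 4 saline mice and so passed the filter only with the bleomycin group. The log2 differences were 2.08 ± 0.30 for *Serpinf1* (adjusted p = 0.000285 by limma) and 1.46 ± 0.26 for *Dpt* (adjusted p = 0.00098).

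The surface markers rose in FPKM as deposited. *Pi16*, a peptidase inhibitor anchored at the cell surface, was at 0.513, 0.561, 2.80 and 3.20 FPKM with saline and at 5.47, 13.3, 18.6 and 21.9 with bleomycin. *Ly6a* was at 5.54, 13.6, 13.2 and 11.3 with saline and at 55.7, 58.3, 106 and 100.2 with bleomycin. *Cd34* was at 0.625, 0.835, 0.767 and 1.36 with saline and at 7.86, 14.6, 19.1 and 19.7 with bleomycin. In all 3 the lowest bleomycin mouse was above the highest saline mouse, as in 67.8% of the 12523 genes tested. *Pi16* and *Cd34* reached 1 FPKM in 2 and 1 of 4 saline mice. They thus passed the filter (1 FPKM in 4 mice) only with the bleomycin group. The log2 differences were 2.52 ± 0.50 for *Pi16*, 2.78 ± 0.42 for *Ly6a* and 3.04 ± 0.33 for *Cd34* (SE), each past the threshold of 0.05 by limma.

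After scaling, the surface markers parted. Scaled *Cd34* was at 0.833, 1.15, 0.776 and 1.16 with saline and at 1.21, 3.11, 2.15 and 2.09 with bleomycin, a log2 difference of 0.64 ± 0.20 (adjusted p = 0.023 by limma). Without *Acta2-tdT* saline mouse 1 or 3 its adjusted p was 0.056 or 0.055. Scaled *Ly6a* was at 7.39 to 18.7 with saline and 8.59 to 12.4 with bleomycin, and scaled *Pi16* at 0.684 to 2.83 and 0.845 to 2.82. These groups overlapped, with log2 differences of -0.093 ± 0.31 (adjusted p = 0.81) and 0.19 ± 0.34 (adjusted p = 0.65).

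In *Acta2-tdT* saline mice *Gsn* had the highest mean FPKM of the 8 markers, followed by *Ly6a* and *Pcolce2*. *Gsn* was at 29.9, 26.7, 53.9 and 118 FPKM with saline and at 122, 221, 292 and 404 with bleomycin, and the groups lay apart by a small margin (log2 difference 2.30 ± 0.57, adjusted p = 0.0031 by limma). Scaled, it was at 36.9 to 101 with saline and 18.9 to 47.0 with bleomycin and did not pass the test (-0.65 ± 0.42, adjusted p = 0.21). *Pcolce2*, which enhances the cleavage of procollagen by the C-proteinase, was at 3.47, 3.07, 4.28 and 5.63 FPKM with saline and at 6.26, 4.60, 10.1 and 13.6 with bleomycin, and the groups overlapped. Scaled *Pcolce2* was at 4.63, 4.23, 4.33 and 4.79 with saline and at 0.966, 0.977, 1.14 and 1.44 with bleomycin, and no bleomycin mouse reached the lowest saline mouse. Its log2 difference was 0.84 ± 0.36 as deposited (adjusted p = 0.047) and -1.37 ± 0.16 when scaled (adjusted p = 6.6e-05 by limma). The deposited call did not hold with a pseudocount of 0.1 (adjusted p = 0.053), without the filter (0.091) or without any 1 of 6 of the 8 mice (0.054 to 0.13), the exceptions being saline mouse 4 and bleomycin mouse 6. Scaled pericyte genes were lower in 5 of 9 tested (*Cox4i2* by -3.05 and *Higd1b* by -2.75) and higher in 2 (*Postn* by 2.79), with a scaled sum of 45.1 to 56.7 with saline and 56.8 to 77.7 with bleomycin. Smooth muscle genes were lower in 3 of 9 and higher in 2, with scaled sums of 627 to 915 and 524 to 781, and no gene of either list was at 0. Their part in the scaled *Pcolce2* difference was not tested.

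The tally in *Acta2-tdT* cells was 7 markers tested and 7 called higher as deposited, where 70.4% of all genes were called higher. On scaled values 3 were called higher and 1 lower, where 56.6% of genes were called and the median was -0.022. *Clec3b* was not tested. It was at 0.0889, 0.0589, 0.102 and 0.299 FPKM with saline and at 0.0749, 0.478, 1.80 and 1.67 with bleomycin (exact two-sided permutation p = 0.11, and 0.80 when scaled). *Pi16*, *Cd34* and *Serpinf1* reached 1 FPKM in at most 2 of 4 saline mice and *Dpt* in 3, and these 4 markers passed the filter only with the bleomycin group, so the counts are no evidence about the list. With all 16 mice in 1 fit or with quantile normalization 4 markers were called, without *Ly6a*, *Gsn* and *Pcolce2* in the former. Genes of leukocytes summed to 763 to 1498 FPKM in saline mice and 4731 to 6867 in bleomycin mice (scaled 1052 to 1516 and 511 to 1060). Of the 10, 8 were tested and 8 were higher as deposited, and 4 were higher and 2 lower when scaled. *Cd3e* and *Cd79a* were at 0 in bleomycin mouse 5, and the part of leukocyte genes in the result was not tested. Mesothelial genes summed to 0.511 to 1.70 FPKM with saline and 4.84 to 37.2 with bleomycin (scaled 0.705 to 1.71 and 0.747 to 7.35). Of these 6 genes 2 were tested and higher as deposited, 1 of them when scaled (*Upk1b*, 0.68 ± 0.18), with *Krt19* at 0 in saline mouse 2 and *Wt1* in bleomycin mouse 5, and their part was not tested either.

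**Figure D2:**
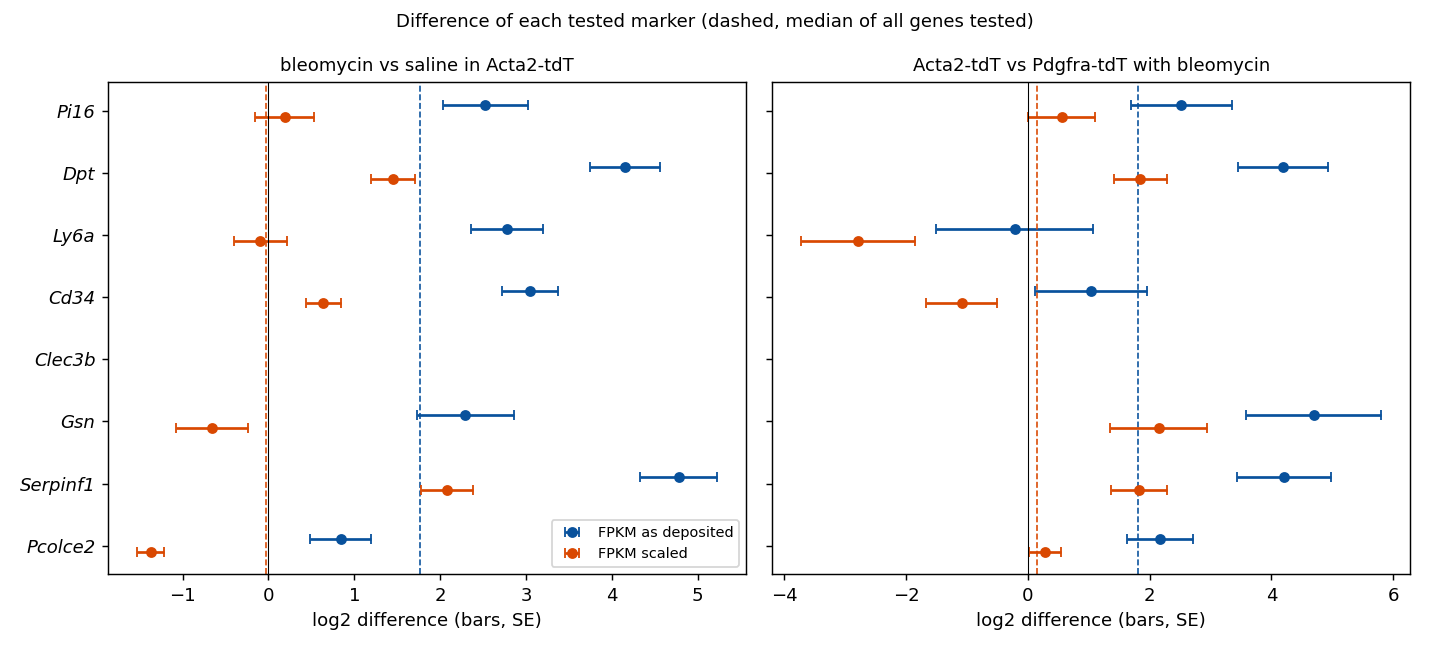
Points are log2 differences of log2(FPKM + 1) with SE bars for FPKM as deposited and scaled, between bleomycin and saline in *Acta2-tdT* cells and between the lines with bleomycin, and dashed lines mark the median of all genes tested. *Dpt* and *Serpinf1* lie above that median on both scales in both panels, *Pcolce2* changes sign with scaling for the effect of bleomycin (0.84 and -1.37), and *Clec3b* was not tested.

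The other adventitial fibroblast genes, a list of 25 that shares no gene with the 8 markers, were read for the same contrast. As deposited, 14 were tested and 14 were higher, with a median log2 difference of 3.86. Of all genes tested 70.4% were called higher as deposited, and when scaled 2999 of 12523 were called higher and 4084 lower. Scaled, 10 were higher, 0 lower and 4 did not pass, with a median of 1.14. Of the 14, 8 reached 1 FPKM in under 4 saline mice, 6 of them in none, and so passed the filter of 4 mice only with the bleomycin group, which leans these counts towards higher values. *Mfap5*, a microfibril protein, rose by a scaled log2 of 2.89 ± 0.27, *Lum* (lumican) by 2.14 ± 0.29, *Dcn* (decorin) by 1.51 ± 0.32 and *Anxa3* (annexin A3) by 1.20 ± 0.27 (SE, limma). Over all 14 the scaled differences ran from -0.098 (*Col14a1*) to 3.18 (*Fbln2*), and those of *Serpinf1*, *Dpt*, *Cd34*, *Pi16* and *Ly6a* fell within that range. Of the alveolar fibroblast genes 9 of 15 were tested, with 4 higher and 3 lower when scaled and a median of 0.27, and 5 of the 9 passed the filter only with the bleomycin group. The fibrillar collagen genes had 6 tested and 6 higher, with a scaled median of 3.18 and 3 of the 6 passing in that way, and endothelial genes 0 higher and 3 lower of 6 tested.

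**Figure D3:**
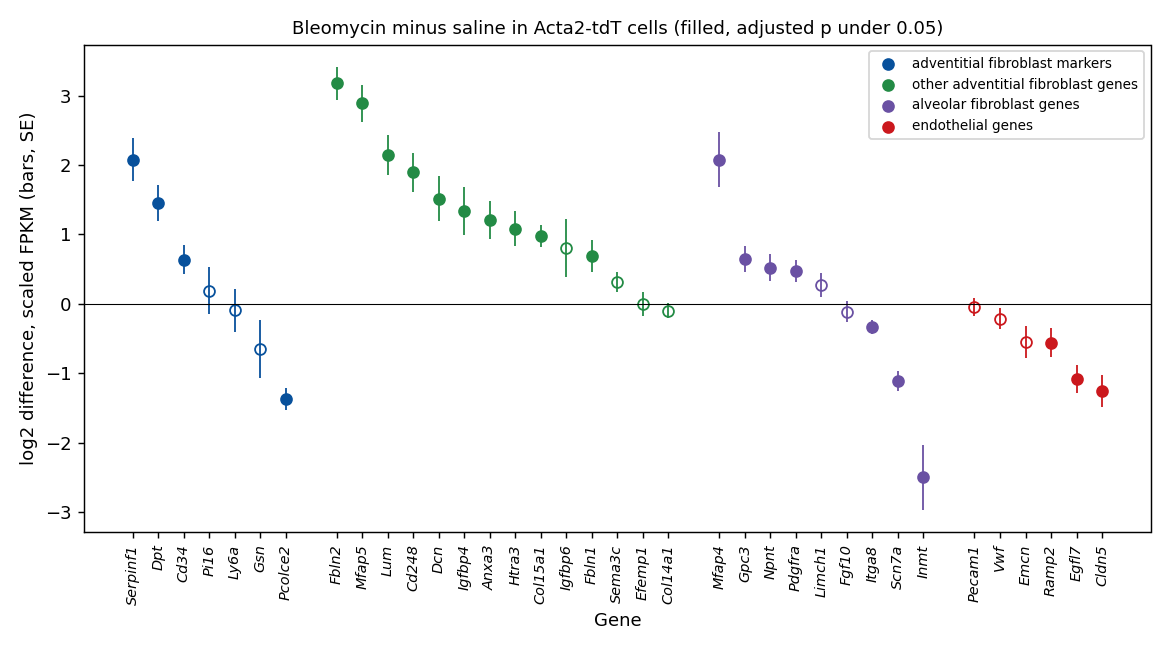
Points are scaled log2 differences between bleomycin and saline in *Acta2-tdT* cells with SE bars, for every tested gene of 4 lists, and filled points have an adjusted p under 0.05. The 7 tested markers spread from 2.08 (*Serpinf1*) to -1.37 (*Pcolce2*) and the 14 other adventitial fibroblast genes from 3.18 (*Fbln2*) to -0.098 (*Col14a1*), where 8 of the 14 passed the filter only with the bleomycin group.

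In *Pdgfra-tdT* cells no marker passed the test for bleomycin against saline on either scale. The 3 markers tested were *Ly6a*, *Cd34* and *Gsn*. *Ly6a* was at 6.86, 4.87, 292 and 7.93 FPKM in saline mice 1 to 4 and at 956, 186, 44.2 and 7.08 in bleomycin mice 5 to 8. Saline mouse 3 was above bleomycin mice 6, 7 and 8, and bleomycin mouse 8 lay within the range of the other saline mice. The log2 difference was 2.27 ± 1.73 (SE, adjusted p = 0.79 by limma). It was 3.60 without saline mouse 3 (adjusted p = 0.36), 1.13 without bleomycin mouse 5 (adjusted p = 0.995) and 2.46 without both (adjusted p = 0.44).

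*Cd34* was at 0.717, 1.08, 14.3 and 0.808 FPKM with saline and at 58.2, 5.81, 2.79 and 1.11 with bleomycin (log2 difference 1.26 ± 1.15, adjusted p = 0.79 by limma). Without saline mouse 3 the *Cd34* difference was 2.02 (adjusted p = 0.36) and every bleomycin mouse was above every saline mouse, without bleomycin mouse 5 it was 0.27, and without both 1.02 (adjusted p = 0.44). *Gsn* was at 3.22, 0.746, 41.0 and 1.64 with saline and at 59.7, 16.7, 3.32 and 0.540 with bleomycin (0.78 ± 1.36, adjusted p = 0.84 by limma). In both genes saline mouse 3 and bleomycin mouse 5 were the highest of their groups. Scaled differences were 1.78 ± 1.39 for *Ly6a*, 0.87 ± 0.81 for *Cd34* and 0.30 ± 1.05 for *Gsn*.

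Of the 5 markers below the filter, *Pi16*, *Dpt*, *Serpinf1* and *Pcolce2* were highest in the same mouse of each group as deposited. *Pi16* was at 0.320, 0.122, 5.38 and 0.270 FPKM with saline and at 16.6, 0.664, 0.303 and 0 with bleomycin. *Dpt* was at 0.109, 0.256, 3.76 and 0.274 with saline and at 7.81, 0.811, 0.203 and 0.126 with bleomycin. Outside saline mouse 3 and bleomycin mouse 5, both genes stayed under 1 FPKM.

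*Serpinf1* was at 0.564, 0.713, 8.34 and 0.309 with saline and at 10.9, 0.898, 1.02 and 0.120 with bleomycin. When scaled, *Pcolce2* was lowest in saline mouse 3 (0.740, against 0.745 to 0.875). As deposited it was at 0.505, 0.456, 0.902 and 0.643 with saline and at 4.65, 0.611, 0.254 and 0.396 with bleomycin. *Clec3b* did not share the pattern, and was at 0 in saline mouse 3 and 0.132 in bleomycin mouse 5. Exact two-sided permutation tests of the 5 gave p of 0.23 to 0.91 as deposited and 0.54 to 0.94 when scaled, where 70 labellings allow 0.029 at the lowest.

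Over all genes 0.124% of 7275 were called as deposited and 0.137% when scaled, with 312 and 324 genes at an unadjusted limma p under 0.05. None of the other adventitial fibroblast genes was called, of 6 tested. Left out together, saline mouse 3 and bleomycin mouse 5 left 0 markers called. Leaving out each mouse in turn also gave 0, and the *Gsn* difference was 1.77 without saline mouse 3, -0.13 without bleomycin mouse 5 and 0.87 without both.

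Endothelial genes moved with *Ly6a* and *Cd34* in these mice. The 10 endothelial genes summed to 17.4, 7.04, 720 and 11.7 FPKM in *Pdgfra-tdT* saline mice 1 to 4 and to 1592, 185, 58.6 and 7.25 in bleomycin mice 5 to 8, with none at 0 in any mouse. *Cldn5*, the claudin of endothelial tight junctions, was at 246 in saline mouse 3 and 741 in bleomycin mouse 5. The order of the 4 bleomycin mice was the same for the endothelial sum, *Ly6a*, *Cd34* and *Gsn*, and also for the sums of leukocyte, other adventitial fibroblast and nuclear protein-coding genes. In *Acta2-tdT* mice the endothelial sum ranged from 14.3 to 24.7 (saline) and from 52.9 to 62.9 (bleomycin), while *Ly6a* was at 5.54 to 13.6 and 55.7 to 106. Leukocyte genes summed to 49.3 to 117 FPKM in *Pdgfra-tdT* saline mice and to 360 to 3175 with bleomycin, with 0 of 6 tested called and *Cd3e* and *Cd79a* at 0 in mouse 5. The part of endothelial or leukocyte genes in these values was not tested. The other adventitial fibroblast genes were high in the same mice, with a sum of 197 in saline mouse 3 against 9.98 to 16.01 in the other saline mice, and 386 in bleomycin mouse 5 against 7.23 to 70.3 in the other bleomycin mice.

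The balance of *Ly6a* and *Gsn* separated the lines in all 16 mice, a feature singled out after the values were seen. *Gsn* was the highest of the 8 markers in 8 of 8 *Acta2-tdT* mice, with *Ly6a* next, and *Ly6a* was the highest in 8 of 8 *Pdgfra-tdT* mice. The ratio of *Ly6a* to *Gsn* was 0.0952 to 0.508 in *Acta2-tdT* saline mice and 0.248 to 0.455 with bleomycin. It was 2.13 to 7.12 in *Pdgfra-tdT* saline mice and 11.2 to 16 with bleomycin. Being a ratio within a mouse, it does not change with scaling, and no group of one line overlapped a group of the other. *Ly6a* made up 55.4% to 87.8% of the summed FPKM of the 8 markers in *Pdgfra-tdT* mice and 7.84% to 29.4% in *Acta2-tdT* mice.

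**Figure D4:**
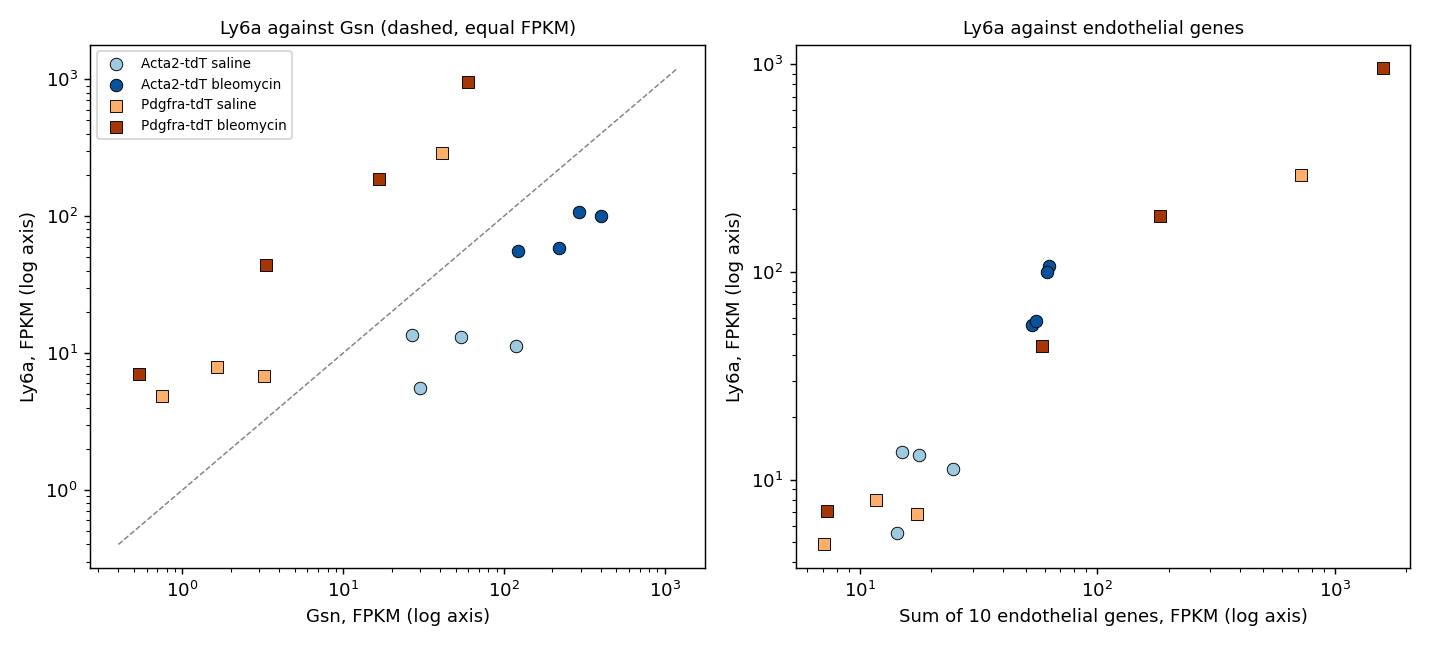
Each point is 1 mouse, with *Ly6a* FPKM against *Gsn* FPKM and against the summed FPKM of 10 endothelial genes, all on log axes. The 8 *Pdgfra-tdT* mice lie above the line of equal FPKM (ratios of 2.13 to 16) and the 8 *Acta2-tdT* mice below it (0.0952 to 0.508), and the mice with the highest *Ly6a*, at 292 and 956 FPKM, have the highest endothelial sums.

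With saline, *Pcolce2* was the 1 marker called between the lines. It was at 3.07 to 5.63 FPKM in *Acta2-tdT* mice and at 0.456 to 0.902 in *Pdgfra-tdT* mice, and the groups did not overlap. The log2 difference (*Acta2-tdT* minus *Pdgfra-tdT*) was 1.64 ± 0.23 as deposited (adjusted p = 0.0097) and 1.61 ± 0.23 scaled (adjusted p = 0.0055 by limma). Of 4 markers tested 1 was called, where 2.91% of 8153 genes were called as deposited and 3.42% when scaled. *Pcolce2* passed the filter through the *Acta2-tdT* group alone, where it reached 1 FPKM in 4 of 4 mice and in 0 of 4 *Pdgfra-tdT* mice. It did not pass without the filter on deposited values (adjusted p = 0.070), with all 16 mice in 1 fit (0.095) or without *Pdgfra-tdT* saline mouse 2 (0.051), and when any *Acta2-tdT* saline mouse was left out it was not tested. With the replicate number as a block in the fit *Pcolce2* passed on neither scale (adjusted p = 0.064 as deposited and 0.052 scaled, by limma). Pericyte genes summed to 39.9 to 53.1 FPKM in *Acta2-tdT* and 4.85 to 5.97 in *Pdgfra-tdT* saline mice with 4 of 6 tested higher as deposited (3 when scaled) and *Higd1b* at 0 in *Pdgfra-tdT* mouse 4, and smooth muscle genes to 470.5 to 1040 and 8.85 to 23.1 with 9 of 9 higher on both scales. Leukocyte genes summed to 763 to 1498 and 49.3 to 117, with 3 of 7 higher on both scales. Their part in the *Pcolce2* difference was not tested.

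*Gsn* was at 26.7 to 118 FPKM in *Acta2-tdT* and 0.746 to 41.0 in *Pdgfra-tdT* saline mice, a log2 difference of 3.19 ± 1.02 (adjusted p = 0.20). Scaled, it was at 36.9 to 101 and 1.22 to 33.6, and the groups did not overlap (3.11 ± 0.87, adjusted p = 0.10 by limma). Without *Pdgfra-tdT* saline mouse 3 the deposited difference was 4.18 (adjusted p = 0.0047), and scaled without that mouse 3.93 (adjusted p = 0.0020). The deposited difference was -0.71 ± 1.21 for *Ly6a* and 0.37 ± 0.46 for *Dpt*, and the scaled one -0.91 ± 1.03 and 0.42 ± 0.38, and deposited *Ly6a* turned to 0.61 without the same mouse. *Pi16*, *Cd34*, *Serpinf1* and *Clec3b* were below the filter, and exact permutation tests of their deposited values gave p of 0.57 to 0.86, and of their scaled values 0.11 (*Cd34*) to 0.66.

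With bleomycin, *Dpt* and *Serpinf1* were higher in *Acta2-tdT* than in *Pdgfra-tdT* cells on both scales. The 4 *Acta2-tdT* values of each, given above, were all above the 4 *Pdgfra-tdT* values, of which bleomycin mouse 5 was the highest. *Dpt* reached 1 FPKM in 1 and *Serpinf1* in 2 of the 4 *Pdgfra-tdT* mice, against 4 of 4 in *Acta2-tdT*, so both passed the filter only with the group where they were higher. The log2 differences as deposited were 4.19 ± 0.73 for *Dpt* (adjusted p = 0.00053) and 4.21 ± 0.77 for *Serpinf1* (adjusted p = 0.00067). Scaled they were 1.85 ± 0.43 (adjusted p = 0.011) and 1.82 ± 0.46 (adjusted p = 0.014 by limma), and without the filter neither scaled difference passed (0.063 and 0.072).

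*Gsn* (4.70 ± 1.11), *Pi16* (2.52 ± 0.83) and *Pcolce2* (2.17 ± 0.54) were also called higher as deposited, and on scaled values none of the 3 passed. Without the filter the deposited *Pi16* difference did not pass (adjusted p = 0.085). Scaled *Gsn* was at 18.9 to 47.0 in *Acta2-tdT* and 0.930 to 21.3 in *Pdgfra-tdT* mice (2.15 ± 0.80, adjusted p = 0.059). Without *Pdgfra-tdT* bleomycin mouse 5, scaled *Gsn* passed with 2.66 (adjusted p = 0.013) and scaled *Pi16* with 1.16 (adjusted p = 0.0084). *Ly6a* was lower in *Acta2-tdT* cells when scaled, at 8.59 to 12.4 against 12.2 to 340.3, a log2 difference of -2.78 ± 0.94 (adjusted p = 0.043). This call was lost without any 1 of 7 of the 8 mice (the exception being *Pdgfra-tdT* mouse 8), with adjusted p of 0.053 to 0.10. As deposited *Ly6a* differed by -0.21 ± 1.29, and by 0.93 without *Pdgfra-tdT* bleomycin mouse 5.

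Between the lines with bleomycin 5 of 7 tested markers were called as deposited, where 79.6% of 11995 genes were called and the median log2 difference was 1.81. Of the 5, *Dpt*, *Serpinf1*, *Pi16* and *Pcolce2* reached 1 FPKM in at most 2 of 4 *Pdgfra-tdT* mice and *Gsn* in 3. All 5 thus passed the filter only with the *Acta2-tdT* group, so the count is no evidence about the markers. On scaled values 2 were called higher and 1 lower, where 33.4% were called and the median was 0.14. Without the filter 0 were called on scaled values. *Cd34* was 1.04 ± 0.91 as deposited and -1.09 ± 0.58 when scaled, neither past the threshold. It was 2.03 as deposited without *Pdgfra-tdT* bleomycin mouse 5 (adjusted p = 0.00285). In the same scaled comparison 9 of 14 tested other adventitial fibroblast genes were higher and 0 lower, 13 of the 14 having passed the filter only with the *Acta2-tdT* group, and 7 of 8 tested endothelial genes were lower. Smooth muscle genes were higher in 9 of 9 (median 4.83) and fibrillar collagen genes in 6 of 6 (3.67), none of which would have passed on the *Pdgfra-tdT* mice alone, and leukocyte genes in 3 of 8 with 1 lower. As deposited these lists summed to 2821 to 7367, 779 to 2629 and 4731 to 6867 FPKM in *Acta2-tdT* mice and to 2.11 to 50.6, 1.21 to 50.6 and 360 to 3175 in *Pdgfra-tdT* mice, and their part in the marker differences was not tested.

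The effect of bleomycin was compared between the lines through the interaction. As deposited, *Dpt* (3.81 ± 0.90, adjusted p = 0.0048) and *Serpinf1* (4.62 ± 1.04, adjusted p = 0.0036 by limma) rose more in *Acta2-tdT* cells. That was 2 of 7 tested markers, where 39.8% of 16605 genes were called and the median was 1.05. Fibrillar collagen genes were called higher in 6 of 6 tested, other adventitial fibroblast genes in 9 of 15 and endothelial genes in 0 of 9, with 0 lower in each list. The part of these lists in the marker values was not tested. Scaled, the values were 1.42 ± 0.61 for *Dpt* (adjusted p = 0.22) and 2.31 ± 0.73 for *Serpinf1* (adjusted p = 0.11). Without *Pdgfra-tdT* bleomycin mouse 5, both passed on scaled values, with 1.78 (adjusted p = 0.046) and 2.69 (adjusted p = 0.022).

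*Pcolce2* was the 1 marker called on scaled values, with an interaction of -1.33 ± 0.32 (adjusted p = 0.045 by limma), where 2.22% of genes were called and the median was -0.25. Its scaled level fell in *Acta2-tdT* cells from 4.50 ± 0.26 to 1.13 ± 0.22 and was 0.797 ± 0.066 and 0.808 ± 0.59 in *Pdgfra-tdT* cells with saline and bleomycin (mean ± SD, n = 4). The call did not hold with a pseudocount of 0.1 (adjusted p = 0.075), without the filter (0.081) or without any 1 of 13 of the 16 mice (0.055 to 0.14). Scaled pericyte genes were called lower in 3 and higher in 1 of 9 tested, and smooth muscle genes lower in 2 and higher in 1 of 9. Their part in the *Pcolce2* interaction was not tested. As deposited the *Pcolce2* interaction was 0.54 ± 0.62. *Pi16* and *Cd34* did not pass as deposited (2.11 ± 1.16 and 1.79 ± 1.24), but did without *Pdgfra-tdT* bleomycin mouse 5 (3.05, adjusted p = 0.0078, and 2.78, adjusted p = 0.019).

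Among themselves the markers did not move as 1 set. Over the 16 mice, the 28 pairs had Pearson correlations of log2(scaled FPKM + 1) from -0.52 to 0.92 with a median of 0.15, and 7 pairs reached 0.6. These are descriptions, since the mice fall into 4 groups and share the scaling. *Ly6a* and *Cd34* were the closest pair (0.92, and 0.78 without *Pdgfra-tdT* saline mouse 3 and bleomycin mouse 5). *Dpt* and *Serpinf1* followed (0.88 with and without those mice). *Pi16* lay with *Gsn* (0.74) and *Dpt* (0.71), and *Gsn* with *Dpt* (0.68), *Serpinf1* with *Pi16* (0.67) and *Pcolce2* with *Gsn* (0.66). *Ly6a* with *Dpt* gave 0.041, and *Clec3b* was negative with the other 7. Without the same mice it gave 0.60 with *Ly6a* and 0.64 with *Cd34*.

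The mean standardised level of the 8 markers was compared with 10357 other nuclear protein-coding genes over the 16 mice, on scaled values. That level was highest in *Pdgfra-tdT* bleomycin mouse 5 (0.90) and saline mouse 3 (0.70), and the ranking was not repeated without them. The 10 most like it had Pearson correlations of 0.93 to 0.96. They were *Pmp22*, *Itfg1*, *4833439L19Rik*, *Klf3*, *Ptrf*, *Tprgl*, *Smc1a*, *Rusc1*, *Oaz2* and *Cd151*. The levels that follow are FPKM as deposited, which are not on the same scale in the groups. *Pmp22*, a membrane protein first known from myelin, had mean FPKM of 8.82 and 66.6 in *Acta2-tdT* saline and bleomycin mice and 5.51 and 14.0 in *Pdgfra-tdT* mice. *Ptrf* (cavin 1), a coat protein of caveolae, had 1.72 and 24.0, and 2.04 and 6.69. None of the 10 was in a list of cell type genes used here.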

How the data were processed

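RNA of tdTomato-positive lung cells was sequenced from 16 mice in 4 groups of 4, grouped by the strain and agent in the labels. The authors aligned reads with TopHat2 2.1.1 and Bowtie2 2.2.9 to the mouse genome (GRCm38) and computed the deposited FPKM with Cufflinks 2.1.1, separately for each mouse. The bounds in the tables are FPKM too, as deposited by the authors. No read counts are used here. Among low values, steps of 1 read were clear in 10 of the 15 mice compared with *Acta2-tdT* saline mouse 2, and the FPKM worth of 1 read differed from that mouse by a log2 of -0.55 to 0.45. In the *Acta2-tdT* bleomycin mice and *Pdgfra-tdT* bleomycin mouse 5 no step was clear.

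The 49534 rows were summed to 49452 genes, and 15 genes with a Cufflinks status other than OK were left out. Scaled FPKM are FPKM divided by the sum over 21950 nuclear protein-coding genes and multiplied by the median sum (49122.5). Tests were run on log2(value + 1) with limma 3.58.1 (eBayes with trend) in R 4.3.3, keeping genes that reached an FPKM of 1 in 4 or more of the fitted mice, with Benjamini-Hochberg adjustment over all genes tested and a threshold of 0.05. Adjusted p-values are those of limma, and fold changes on this scale understate changes of low genes. Values of single genes below the filter were compared with exact two-sided permutation tests over 70 labellings. The procedure was tested on simulated data for bleomycin in *Acta2-tdT* mice, where 0, 99 and 173 of 200 genes changed by a log2 of 1, 2 and 3 were called among 13731, 13770 and 13733 genes tested. Of the unchanged genes 0, 5 and 14 were called. Only 200 genes were changed there, while 86.6% were called in the data as deposited. The adjustment is then less strict, so these recoveries do not carry over to the real comparison. Other software was Python with pandas and matplotlib, and data.table. Other settings tried were 0.1 as pseudocount, omission of the filter, a minimum mean FPKM of 5, all 16 mice in 1 fit, quantile normalization, sample quality weights, eBayes without trend, the largest row of a gene, the replicate number as a block and each mouse left out. Leaving out *Pdgfra-tdT* saline mouse 3 and bleomycin mouse 5 together was chosen after seeing the data.

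The markers and the gene lists were chosen with earlier results of these data known. Named genes are the 8 markers, *Acta2* and *Pdgfra*, up to 4 genes of each list by mean FPKM over the 16 mice, and the 10 genes most like the markers. Genes listed at 0 and the lowest and highest of a list were named after their values were seen. Promoters came from RefSeq (GRCm38.p6), and gene overlaps from GENCODE M21, which gave 82.2% of the 49107 genes compared the same start and end. Nothing in the labels says more of the replicates than that they are separate samples, so p-values measure the spread between these.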

Additional observations from a re-analysis of the deposited data

Results flagged for a closer look

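In *Pdgfra-tdT* saline mouse 3, 5 of the 8 markers lay farther from the other 3 mice than Dixon's test allows at the 95% level on log2(FPKM + 1). These were *Pi16* at 5.38 FPKM, *Dpt* at 3.76, *Ly6a* at 292, *Cd34* at 14.3 and *Serpinf1* at 8.34. In *Pdgfra-tdT* bleomycin mouse 5, *Pcolce2* at 4.65 FPKM was the only marker past that limit. These were 6 of 32 groups tested, where chance gives about 5%, and the groups share mice. No marker was past the limit in an *Acta2-tdT* group. The endothelial sum was 720 FPKM in the saline mouse and 1592 in the bleomycin mouse, and its part in these values was not tested.

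In FPKM as deposited the interaction of line and bleomycin was called for *Dpt* (3.81, adjusted p = 0.0048 by limma) and *Serpinf1* (4.62, adjusted p = 0.0036). There 39.8% of 16605 genes were called. Scaled, neither of the 2 passed (adjusted p = 0.22 and 0.11 by limma). *Pcolce2* was called in scaled FPKM (-1.33, adjusted p = 0.045 by limma), where 2.22% of genes were called. That call was lost with a pseudocount of 0.1 (0.075), without the filter (0.081) or when most single mice were left out. The median sum of nuclear protein-coding FPKM was 42700 in *Acta2-tdT* saline and 376953 in *Acta2-tdT* bleomycin mice, and 33068.5 and 46107 in *Pdgfra-tdT* mice.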

How the results depend on the processing

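The number of markers called depended on the scale and on single mice. In *Acta2-tdT* cells the 7 called as deposited became 4 with all 16 mice in 1 fit and 4 with quantile normalization, of which *Pcolce2* was lower and the other 3 higher. Between the lines with saline the 1 called became 0 without the filter, 0 with all 16 mice in 1 fit and 3 with sample quality weights, and leaving out each mouse gave 0 to 2, as deposited and when scaled. Between the lines with bleomycin the 3 called on scaled values became 0 without the filter. For the interaction the 2 called as deposited became 1 with quantile normalization, 5 with sample quality weights and 4 without both *Pdgfra-tdT* mice that stood apart, and 2 to 4 with each mouse left out. The 1 called on scaled values became 0 with a pseudocount of 0.1, 0 without the filter and 3 without both mice, and 0 to 3 with each mouse left out. Bleomycin in *Pdgfra-tdT* cells gave 0 under every alternative run.

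Whether the replicate numbers that the lines share pair the mice could not be decided from so few mice per group. Deviations of same-numbered mice correlated at 0.095, 0.099, 0.16 and -0.086 with saline. With bleomycin they correlated at -0.088, 0.071, -0.096 and -0.31. *Acta2-tdT* saline mice 1 and 3 correlated best with the *Pdgfra-tdT* mouse of their own number, and the other *Acta2-tdT* mice did not. With the number as a replicate block 0 markers in place of 1 were called between the lines with saline, on both scales, and with bleomycin 5 as deposited and 2 scaled.

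Signs also turned. For bleomycin in *Acta2-tdT* cells, *Pcolce2* was -1.26 with quantile normalization and -1.37 when scaled, *Ly6a* -0.093 and *Gsn* -0.65 when scaled. Between the lines with saline *Ly6a* was 0.51 with sample quality weights. With bleomycin *Cd34* was -1.21 with quantile normalization and -1.09 when scaled, and *Ly6a* 0.80 with sample quality weights. For the interaction, quantile normalization gave *Ly6a* -1.11, *Gsn* -0.11 and *Pcolce2* -0.91, and scaling gave *Ly6a* -1.87, *Cd34* -0.23, *Gsn* -0.96 and *Pcolce2* -1.33. The cause was not tested.

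With each mouse left out in turn, these differences crossed 0. In *Acta2-tdT* cells scaled *Pi16* was -0.0093 to 0.41 and scaled *Ly6a* -0.29 to 0.12. In *Pdgfra-tdT* cells *Gsn* was -0.13 to 1.77, and scaled -0.20 to 1.13. Between the lines *Ly6a* was -1.27 to 0.61 with saline (scaled -1.37 to 0.21) and -1.37 to 0.93 with bleomycin. In the interaction *Ly6a* was -0.82 to 1.64, scaled *Pi16* -0.36 to 0.74 and scaled *Cd34* -0.85 to 0.35. Of all the marker differences recomputed, 722 kept their direction and side of the threshold, 57 lost the call, 21 gained it and 37 turned. FPKM without counts limit what can be said of *Clec3b*, which was under 1 FPKM in 14 mice.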
